A study of Mus musculus with 2 samples.

Results

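The genes examined here repair DNA or signal its damage. They were taken by name, as every gene measured by a probe set with 1 symbol that belongs to the RAD, Fanconi anaemia (FANC), BRCA, XRCC, MSH, MLH, PMS or ERCC series, or is Palb2, Atm, Atr, Chek1, Chek2, Mre11a, Nbn, Blm, Exo1 or Parp1. This gave 62 genes, on 64 probe sets, of 23370 genes on the array. ES-D3 mouse embryonic stem cells (ATCC CRL-1934, strain 129S2/SvPas), an established pluripotent line, were grown either on a 6-well plate or in a microfluidic chamber with minimal perfusion (called the microchamber). Cells were plated in each at 20000 per square centimetre, kept for 3 days in 15% serum with 1000 U of the cytokine LIF, and read on 1 Affymetrix Mouse Gene 2.0 ST array each. No drug, genetic change or DNA-damaging agent is named in the labels.

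Repair pathways differ in the lesions they handle or in the way they mend them. Homologous recombination copies a broken double helix from the sister chromatid, end joining rejoins the ends directly, and the Fanconi anaemia proteins unhook crosslinks between strands. Mismatch repair corrects replication errors, base excision and nucleotide excision remove damaged bases or bulky lesions, and the ATM and ATR kinases halt the cell cycle meanwhile. Embryonic stem cells divide fast, spend much of their cycle in S phase and are known for high expression of recombination and mismatch repair genes. In cells short of oxygen, Brca1 and several mismatch repair genes are known to be repressed.

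Values are log2 RMA expression values as deposited, so a step of 1 is a 2-fold step, and every difference is microchamber minus 6-well plate. With 1 array in each culture there is no replicate error, no test can be made, and each value describes this pair of arrays only. Genes whose higher value fell under the 20th percentile of named probe sets, 5.16 on the plate array and 5.17 on the microchamber array, were left out. Of the 62 repair genes 60 were kept. As a yardstick within this pair of arrays, 801 genes with 2 kept probe sets had a standard deviation of 0.21 between the differences of their own probe sets. All 10 embryonic stem cell markers lay above the median of named probe sets on both arrays, 6.13 on the plate and 6.10 in the microchamber, with values of 6.57 to 13.08 and 6.27 to 12.81. Of 10 fibroblast or feeder markers, 5 did so, the highest at 7.97 on the plate and 7.48 in the microchamber, and their summed log2 level was 63.28 and 61.61. Of the 8 fibroblast or feeder markers past the filter 7 were lower in the microchamber (87.5%, against 52.3% of all kept genes). Their median difference was -0.25, about the size of the differences of Brca1 and Brca2 given below. The part of these markers in the repair gene values was not tested.

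Most repair genes were close to each other on the arrays, and none differed 2-fold. At least 0.5 log2 (1.41-fold) lower in the microchamber were 2 of the 60 kept repair genes, Rad51c and Xrcc6, against 4.24% of all 19179 kept genes. At least 0.5 log2 higher were 4 of 60, Fancm, Rad9b, Atm and Msh3, against 3.59% of all kept genes. The 2-fold step was passed by 0.443% of all kept genes downwards and 0.344% upwards. By array signal, which is not scaled to transcript length, 57 of 60 repair genes lay above the median mean level, where differences are wider. In either direction 7.83% of all kept genes differed by at least 0.5 log2, 13% of those above the median level did, and 10.53% of the 57 repair genes did. The share of repair genes past the step was thus near the background, and the pathway is described here by its members. Their median difference was -0.03, with 33 of 60 (55.0%) below 0, against -0.01 and 52.3% for all kept genes.

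**Figure D1:**
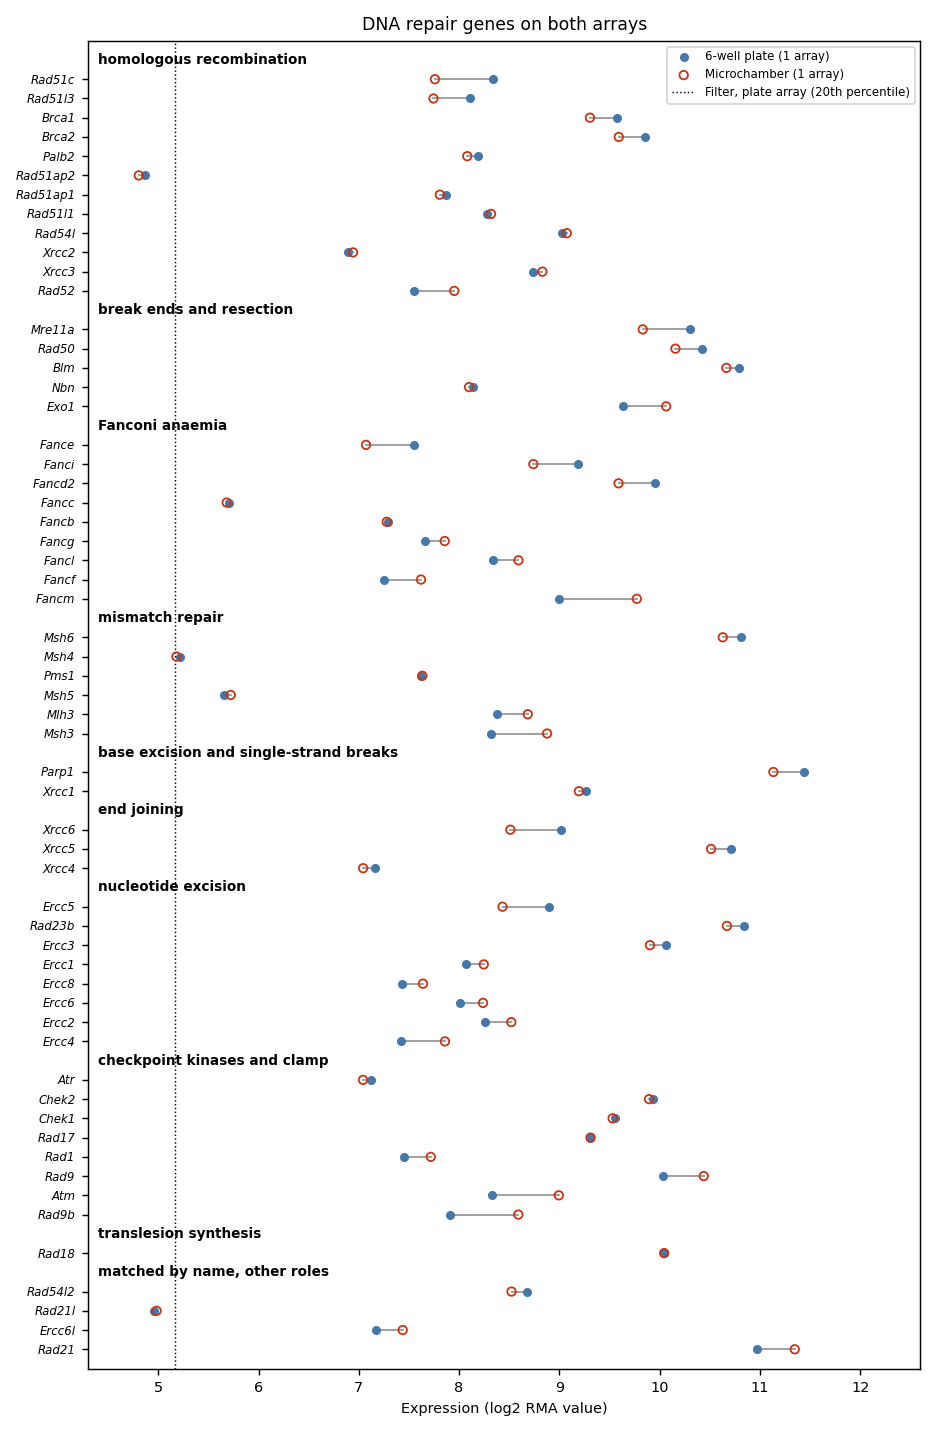
Expression (x axis, log2 RMA value) of 58 repair genes by pathway, with filled points for the 6-well plate array and open points for the microchamber array; the dotted line is the filter. The points of most genes nearly touch, Rad51ap2 and Rad21l lie below the filter on both arrays, and the widest gap is that of Fancm, from 8.99 to 9.77.

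**Figure D2:**
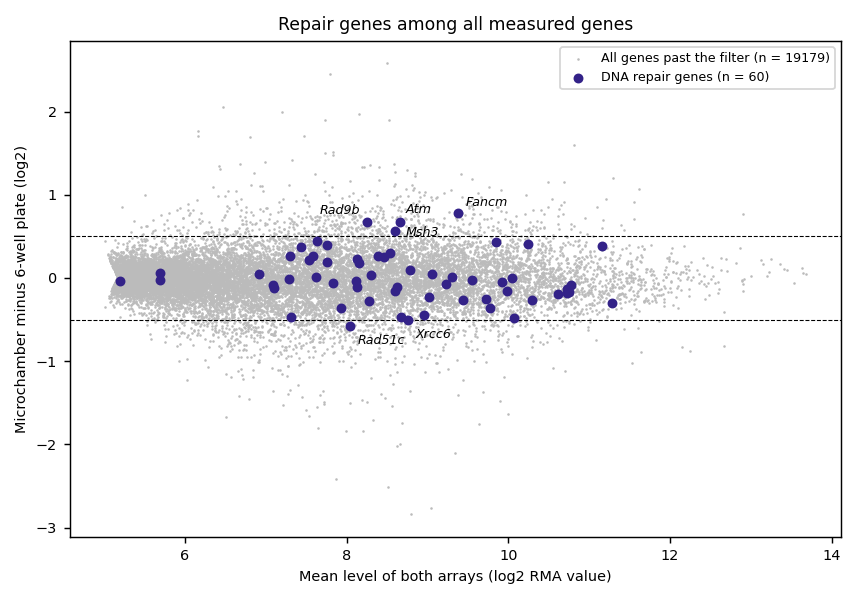
Difference (y axis, microchamber minus 6-well plate, log2) against mean level of both arrays (x axis, log2 RMA value) for all 19179 kept genes in grey and the 60 kept repair genes in blue, with dashed lines at -0.5 and 0.5. The 6 labelled repair genes lie inside the grey cloud, and the differences of genes of low level are narrower.

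Homologous recombination genes lay on both sides of 0, with 7 of 12 kept genes lower in the microchamber (58.3%, against 52.3% of all kept genes) and a median difference of -0.08. Brca1, which promotes resection of broken ends, was 9.58 on the plate and 9.30 in the microchamber, a difference of -0.27. Brca2, which prepares single-stranded DNA for strand exchange, was 9.85 and 9.59, a difference of -0.26. Both BRCA genes were thus lower by nearly the same small amount. Palb2, the bridge between BRCA1 and BRCA2, was 8.19 and 8.08, a difference of -0.10.

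The recombination mediator genes Rad51c, Rad51l3, Rad51l1, Xrcc2 and Xrcc3, whose proteins work in stable complexes, lay on both sides of 0. Rad51c, on chromosome 11 (87376645 to 87404954, GRCm38), was 8.33 on the plate and 7.76 in the microchamber. It was 1.49-fold lower (difference -0.57), the lowest of the 60 repair genes. Rad51l3, the older symbol of Rad51d, was 8.11 and 7.74, a difference of -0.36. Its partners in the same 4-subunit complex, Rad51l1 (the older symbol of Rad51b) and Xrcc2, were at differences of 0.04 and 0.05, and Xrcc3, the partner of RAD51C in a second complex, was at 0.09. RAD51C is the subunit common to both complexes. The highest gene of the pathway was Rad52, a strand-annealing protein, at 7.55 on the plate and 7.95 in the microchamber, a difference of 0.40. The accessory factor Rad51ap1 was at -0.06 and the motor protein Rad54l at 0.04. Rad51ap2, at 4.87 and 4.81, did not pass the filter.

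Rad51c has an outer and an inner annotated start, and the outer one lies 111 bases from the start of Tex14, a germ cell gene on the other strand. Tex14 was 8.68 on the plate and 8.21 in the microchamber, a difference of -0.47, so both genes of this pair were lower. The windows below run from 250 bases before to 50 bases after each Rad51c start on the minus strand (RefSeq, GRCm38.p6), and are shown because Rad51c was the lowest repair gene and held an E2F-type word near its inner start. E2F factors are the S-phase regulators of many replication and repair genes. In the first window (chr11:87404905-87405204) capitals mark the bases between the starts of Tex14 and Rad51c, and in the other (chr11:87404457-87404756) they mark the E2F-type word, 11 to 19 bases after the start.
Rad51c beside Tex14: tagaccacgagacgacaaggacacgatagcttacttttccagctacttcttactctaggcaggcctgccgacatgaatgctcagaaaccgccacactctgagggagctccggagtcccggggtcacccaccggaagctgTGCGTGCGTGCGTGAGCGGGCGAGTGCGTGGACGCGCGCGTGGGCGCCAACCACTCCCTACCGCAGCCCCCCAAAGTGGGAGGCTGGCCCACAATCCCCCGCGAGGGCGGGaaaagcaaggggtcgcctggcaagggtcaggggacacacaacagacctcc
Rad51c inner start: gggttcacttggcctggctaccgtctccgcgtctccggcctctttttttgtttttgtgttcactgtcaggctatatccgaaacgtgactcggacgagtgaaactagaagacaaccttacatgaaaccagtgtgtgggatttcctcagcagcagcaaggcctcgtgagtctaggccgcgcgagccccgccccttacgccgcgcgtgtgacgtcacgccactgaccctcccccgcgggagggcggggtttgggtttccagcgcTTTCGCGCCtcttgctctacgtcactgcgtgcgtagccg

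Of the genes that sense and trim broken ends, 4 of 5 were below 0 (80%, against 52.3% of all kept genes), with a median of -0.13. So few genes cannot be set against that share. The MRN complex of Mre11a, Rad50 and Nbn binds the ends first and activates ATM. Its nuclease Mre11a, on chromosome 9 (14784654 to 14837125), was 10.31 on the plate and 9.83 in the microchamber, a difference of -0.48. The tethering subunit Rad50 was 10.42 and 10.16, a difference of -0.26, and the ATM-recruiting subunit Nbn was 8.14 and 8.10, a difference of -0.04. All 3 subunits were on the same side of 0, and the gap between the outer ones was 0.44. Blm, the helicase that unwinds ends and dissolves crossed strands, was 10.79 and 10.66, a difference of -0.13. Exo1, the exonuclease that extends resection and also excises mismatches, was 9.63 and 10.06, a difference of 0.43 in the other direction.

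Mre11a starts 81 bases from Ankrd49, which runs the other way. Ankrd49 was 9.25 on the plate and 9.66 in the microchamber, a difference of 0.41, so the neighbours of this pair differed in opposite directions. The window around the Mre11a start (chr9:14784404-14784703, plus strand, GRCm38.p6) is shown to set this short stretch beside the one of Rad51c, with the bases between the starts in capitals.
Mre11a beside Ankrd49: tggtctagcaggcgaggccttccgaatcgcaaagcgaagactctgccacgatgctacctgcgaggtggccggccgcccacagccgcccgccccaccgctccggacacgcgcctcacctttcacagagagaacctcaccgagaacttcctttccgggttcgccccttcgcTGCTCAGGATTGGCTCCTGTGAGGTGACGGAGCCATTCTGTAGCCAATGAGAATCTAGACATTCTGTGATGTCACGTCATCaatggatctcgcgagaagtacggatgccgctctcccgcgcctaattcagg

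Fanconi anaemia genes lay on both sides of 0, with the target proteins' genes lower and the core complex genes on either side. The core complex is a ubiquitin ligase, and its targets FANCD2 and FANCI form a clamp on crosslinked DNA. Fancd2 was 9.95 on the plate and 9.59 in the microchamber, a difference of -0.36, and Fanci was 9.18 and 8.74, a difference of -0.44. Both partners of the clamp were lower by similar amounts. Fancm, the translocase that anchors the core complex to DNA, on chromosome 12 (65074110 to 65131842), was 8.99 on the plate and 9.77 in the microchamber. This was 1.72-fold higher (difference 0.78), the highest of the 60 repair genes. Fkbp3, on the other strand, lay 172 bases from Fancm by annotated extent and was at -0.16.

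Other core complex genes lay on both sides of 0. Fance, the adaptor that holds FANCD2, was 7.55 and 7.07, a difference of -0.47. Fancf, a scaffold of the core, was at 0.37, the ubiquitin ligase subunit Fancl at 0.25 and Fancg at 0.20. Fancb and Fancc were at -0.01 and -0.02, and the array values of Fancc were 5.70 on the plate and 5.68 in the microchamber. The 7 measured core genes spanned 1.25 log2, the widest span among the complexes compared. The other complexes held at most 4 measured genes each. A span tends to widen with the number of genes, so these spans cannot be ranked like for like. The median of all 9 pathway genes was -0.01. Fanca was measured only by a probe set shared with Zfp276, at 8.50 and 8.36, a difference of -0.14 that cannot be assigned to either gene.

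**Figure D3:**
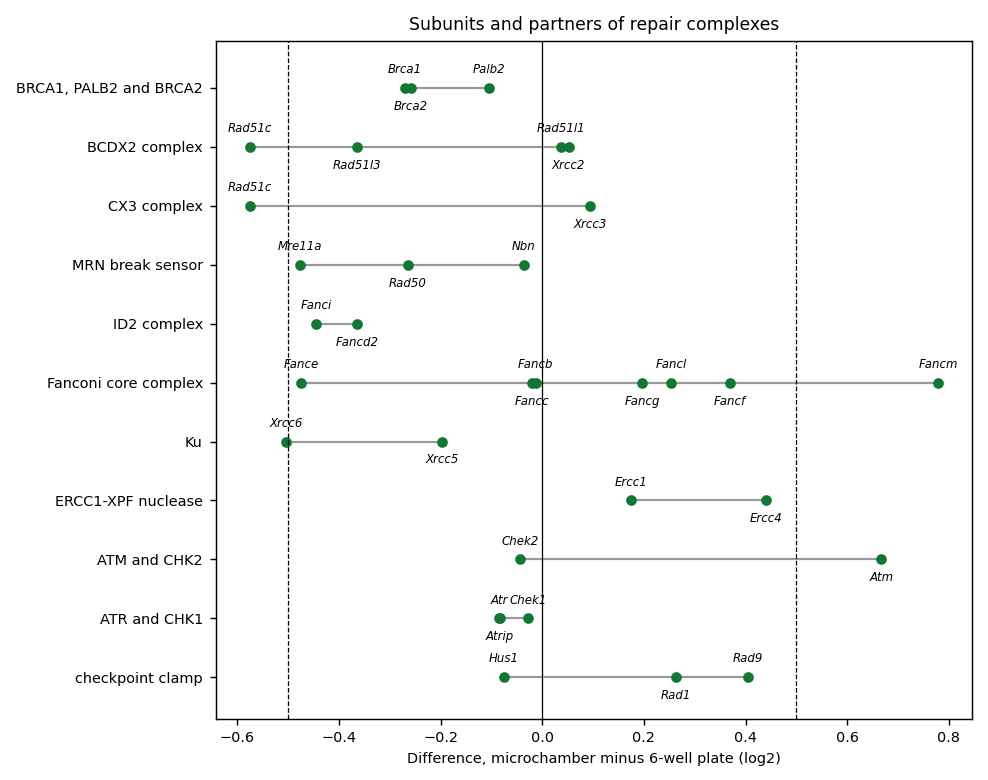
Differences (x axis, microchamber minus 6-well plate, log2, 1 array each) of the subunits and partners of 11 complexes, with a grey line from the lowest to the highest; dashed lines stand at -0.5 and 0.5. Fancd2 and Fanci lie side by side below 0, whereas the Fanconi core complex reaches from -0.47 to 0.78.

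Most mismatch repair genes differed little between the arrays, and Msh3 and Mlh3 were the highest. Msh6, the sensor subunit for single-base mismatches, was 10.81 on the plate and 10.63 in the microchamber, a difference of -0.18. Msh3, the sensor subunit for longer loops, on chromosome 13 (92211878 to 92355004), was 8.31 and 8.88, which was 1.48-fold higher (difference 0.56). The alternative sensor subunits thus lay on opposite sides of 0. Pms1 and Mlh3, which belong to the MutL complexes that act after the sensors, were at 0.01 and 0.31, and MLH3 is also known from meiosis. The meiotic genes Msh4 and Msh5 were near the filter, at 5.22 and 5.66 on the plate, with differences of -0.04 and 0.07. The median of the 8 kept genes was -0.01, with 4 below 0 (50%, against 52.3% of all kept genes). Pms2, another MutL gene, was measured only by a probe set shared with Rsph10b2, at 6.53 and 6.42.

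Words of the E2F type were also searched in the promoters of the other repair genes. The words searched on either strand were TTTGGCGC, TTTCGCGC, TTCGCGCC and TTTGCGCG, of which TTTCGCGC and TTCGCGCC can overlap. Only these exact words were counted, so a promoter without a match can still hold another form of E2F site. Of 45 kept repair genes with a promoter in the RefSeq table, Msh3 and Rad51c held such a word (4.44%), against 358 of 14089 kept genes (2.54%). These lie past the 0.5 step in opposite directions, and a match is a description of letters only. The word TTTGAA of the cell cycle homology region, found on either strand, was in 3 of the 45 repair genes (6.67%), Ercc5, Msh4 and Rad51l1, against 15.5% of kept genes.

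The 5 repair genes described here for single-strand breaks and end joining were all below 0, whereas other genes of these pathways lay on both sides. Of all kept genes 52.3% were below 0, and 5 genes are too few to set against that share. Parp1, which senses strand breaks and marks them with poly(ADP-ribose), was 11.44 on the plate and 11.13 in the microchamber, a difference of -0.30. Xrcc1, the scaffold recruited to those marks, was 9.26 and 9.19, a difference of -0.07. The Ku ring, made of XRCC5 and XRCC6, caps ends for end joining. Xrcc6 (Ku70), on chromosome 15 (81987833 to 82040085), was 9.01 and 8.51, which was 1.42-fold lower (difference -0.50). Xrcc5 (Ku80) was 10.71 and 10.51, a difference of -0.20. Xrcc4, the partner of DNA ligase IV, was 7.16 and 7.04, a difference of -0.12. All 3 end joining genes were below 0, with a median of -0.20, but Xrcc6 lay at the very edge of the 0.5 step and fell inside it once the differences were centred on the median of all genes.

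Nucleotide excision genes lay on both sides of 0, with 5 of 9 above it and a median of 0.17. The other 4 were below 0 (44.4%, against 52.3% of all kept genes). The nuclease that cuts 5′ of a lesion was higher in both subunits: Ercc1 was 8.07 on the plate and 8.25 in the microchamber, a difference of 0.17, and Ercc4 (XPF) was 7.42 and 7.86, a difference of 0.44. The nuclease that cuts on the 3′ side, Ercc5 (XPG), was 8.90 and 8.43, a difference of -0.47, so the paired incision enzymes were on opposite sides of 0. The helicase subunits of the transcription factor TFIIH also differed in sign, with Ercc2 (XPD) at 0.26 and Ercc3 (XPB) at -0.16. The transcription-coupled factors Ercc6 (CSB) and Ercc8 (CSA) were at 0.23 and 0.21. The lesion-sensor partner Rad23b was at -0.17.

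**Figure D4:**
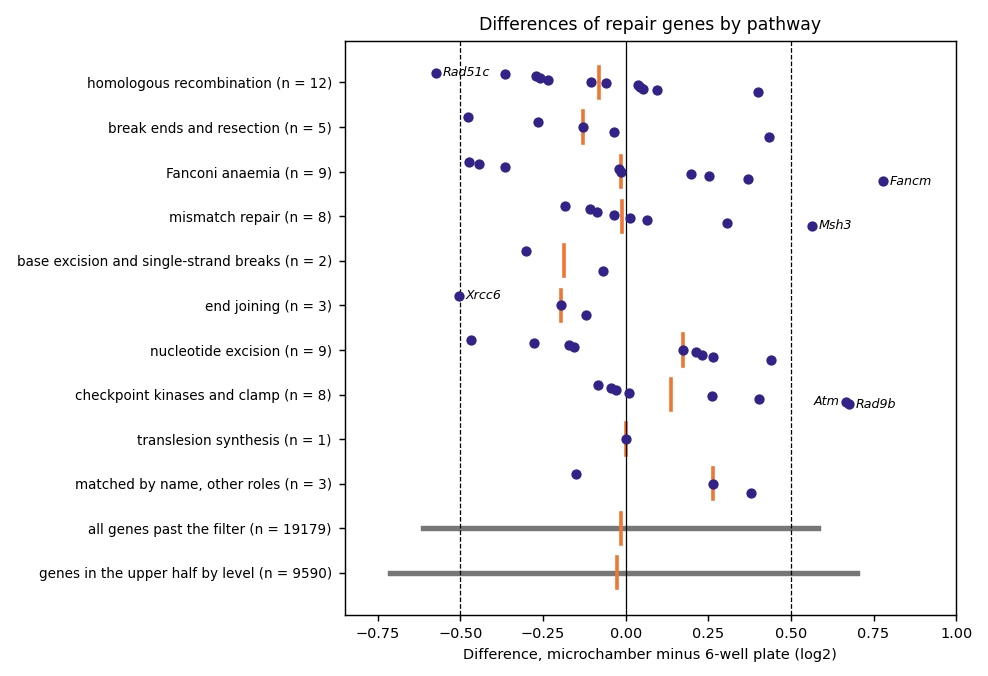
Differences (x axis, microchamber minus 6-well plate, log2) of the 60 kept repair genes by pathway, 1 point per gene, with orange bars for the median; grey bars below show the middle 95% of all 19179 kept genes and of the 9590 above the median level, and dashed lines stand at -0.5 and 0.5. The named genes are the 6 past the dashed lines, and Fancm, at 0.78, lies outside both grey bars.

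Of the 8 kept checkpoint genes 2 were at least 0.5 log2 higher, Atm and Rad9b. The share was 3.59% among all kept genes and 6.16% among those above the median level, and 2 genes are too few to compare with it. Atm, the kinase activated by broken ends, on chromosome 9 (53437122 to 53536828), was 8.33 on the plate and 8.99 in the microchamber, which was 1.59-fold higher (difference 0.67). Its target kinase Chek2 was 9.94 and 9.89, a difference of -0.04. Atr, the kinase for stalled forks, was 7.13 and 7.04, a difference of -0.08, as the mean of 2 probe sets at -0.25 and 0.08. The brighter of these, at 8.71 and 8.46, gave the lower difference. Its target kinase Chek1 was 9.56 and 9.53, a difference of -0.03. Of the 4 kinases Atm alone passed the 0.5 step.

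The ring-shaped checkpoint clamp and its loader were level or higher. Rad9, the older symbol of the clamp subunit Rad9a, was 10.04 on the plate and 10.44 in the microchamber, a difference of 0.40. Rad1, another clamp subunit, was at 0.26, with its 2 probe sets at 0.30 and 0.23, and the clamp loader subunit Rad17 was at 0.01. Hus1, the other subunit, which was not chosen by name, was at -0.08. Rad9b, a paralog of Rad9a known mainly from testis, on chromosome 5 (122323223 to 122354270), was 7.91 and 8.59, which was 1.60-fold higher (difference 0.68). The median of the 8 checkpoint genes was 0.14, with 5 above 0 and 3 below (37.5%, against 52.3% of all kept genes). Rad18, the ubiquitin ligase that starts translesion synthesis, was 10.04 on both arrays.

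Rad9b starts 123 bases from Vps29, a subunit of the retromer sorting complex on the other strand. Vps29 was 9.00 on the plate and 8.75 in the microchamber, a difference of -0.25. The window around the Rad9b start (chr5:122354156-122354455, minus strand, GRCm38.p6), with the bases between the starts in capitals, is shown as another short stretch between neighbours that lay on opposite sides of 0.
Rad9b beside Vps29: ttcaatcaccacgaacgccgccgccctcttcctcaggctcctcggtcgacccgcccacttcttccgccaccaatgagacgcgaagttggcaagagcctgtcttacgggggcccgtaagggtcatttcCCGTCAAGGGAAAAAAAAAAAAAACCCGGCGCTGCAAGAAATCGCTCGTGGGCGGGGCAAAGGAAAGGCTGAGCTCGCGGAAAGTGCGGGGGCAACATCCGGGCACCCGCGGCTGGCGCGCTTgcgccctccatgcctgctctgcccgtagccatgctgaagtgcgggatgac

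Other repair genes also start beside a gene on the other strand. Within 1000 bases of the start of 21 kept repair genes lay the start of a gene on the other strand, and for 19 of these the neighbour was measured and kept. The repair gene and its neighbour had the same sign in 10 pairs and opposite signs in 9. No neighbour reached 0.5 log2 in either direction, against 7.83% of all kept genes and 13% of those above the median level. The 19 neighbours are too few to set against these shares. Atm was at 0.67 beside the histone gene regulator Npat at 0.12, and Xrcc6 at -0.50 beside Desi1 at -0.17. Brca1 was at -0.27 beside the autophagy receptor Nbr1 at 0.04, and Palb2 at -0.10 beside the dynactin subunit Dctn5 at 0.14. Fancf and Gas2, which start 252 bases apart and overlap each other, were at 0.37 and -0.44. Rad1 and the ribosome biogenesis factor Brix1 were close, at 0.26 and 0.28.

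**Figure D5:**
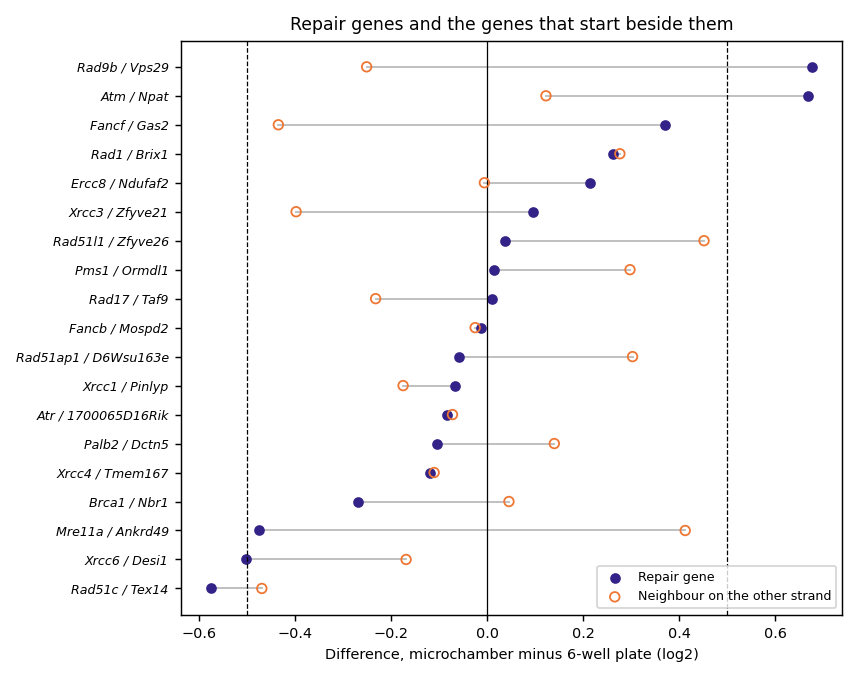
Differences (x axis, microchamber minus 6-well plate, log2, 1 array each) of 19 repair genes (filled) and of the gene that starts within 1000 bases on the other strand (open), with dashed lines at -0.5 and 0.5. Rad51c and Tex14 are both on the left, whereas the points of Mre11a and Ankrd49 or Rad9b and Vps29 lie on opposite sides of 0.

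Some genes that carry a repair name are known mainly for other roles. Rad21, the cohesin subunit that closes the ring around sister chromatids, was 10.97 on the plate and 11.35 in the microchamber, a difference of 0.38. Ercc6l (PICH), a translocase on mitotic DNA bridges, was at 0.26, and Rad54l2, a chromatin remodeller, was 8.67 and 8.52, a difference of -0.15. Rad21l, a meiotic cohesin subunit, did not pass the filter, at 4.96 and 4.98.

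From a wider list, 123 other genes on the array, counted under repair pathways, passed the filter. Among them is Fam54a, at 0.18, which was counted under Fanconi anaemia but is not known as a repair gene. Of the 123 genes 4 were at least 0.5 log2 lower and 7 at least 0.5 log2 higher. Together these were 8.94%, against 7.83% of all kept genes and 13% of those above the median level, so near the background. None was 2-fold apart, and the median was -0.04 with 67 below 0 (54.5%, against 52.3% of all kept genes). The share of 52.3% is also the reference for the signs counted in each list that follows. Among 31 other recombination genes 4 were at least 0.5 log2 higher (12.9%, against 3.59% of all kept genes and 6.16% of those above the median level) and none lower, with 19 above 0 and a median of 0.07. Their highest were the helicase genes Mcm8 at 0.71 and Rtel1 at 0.68, and the lowest were the recombination accessory genes Zswim7 at -0.46 and Swi5 at -0.43. Of 9 other end joining genes 7 were above 0, with Nhej1 (XLF), the partner of XRCC4, at 0.66 and the end-protection factor Rif1 at 0.50, and the polymerases Poll and Polm at -0.21 and -0.05. The 7 thus lay on the opposite side of 0 from the Ku and Xrcc4 genes, and the polymerases on the same side.

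In the Fanconi pathway Ube2t, the ubiquitin-conjugating enzyme that works with the core complex on FANCD2 and FANCI, was 8.78 on the plate and 8.01 in the microchamber. Its difference of -0.77 was the lowest of the wider list and on the same side of 0 as its substrates. Stra13, a partner of FANCM in DNA binding, was at -0.45, and the nucleases Fan1 and Dclre1a were at 0.31 and 0.30. Of 10 other translesion genes 7 were below 0, with the polymerase zeta subunit Mad2l2 at -0.60 and the polymerase Polh at -0.57 lowest, and Rev3l at 0.23 and Shprh at 0.11 highest. Among the replication factors used in mismatch repair, the polymerase delta subunit Pold2 was at -0.54 and the clamp loader subunits Rfc1, Rfc3 and Rfc5 at -0.21, 0.05 and 0.13.

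Other base excision genes ranged from Neil1 at -0.50 and Nthl1 at -0.40 to Ogg1 at 0.41 and Apex2 at 0.45, with 12 of 21 below 0. Neil1, Nthl1 and Ogg1 are glycosylases that remove oxidised bases. Other nucleotide excision genes ranged from Cetn2 at -0.44 and Gtf2h4 at -0.41 to Ccnh at 0.14 and Cdk7 at 0.29, with 13 of 19 below 0. Other checkpoint genes ranged from Clspn at -0.29 and Hus1b at -0.26 to Tlk1 at 0.41 and the ATR activator Etaa1 at 0.56. The direct reversal genes Alkbh2, Mgmt and Alkbh3 were at -0.20, -0.16 and -0.12.

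Many repair genes are transcribed with the cell cycle, so cell cycle lists were taken on the same arrays. Of all kept genes 52.3% were below 0. Of 32 genes of G1/S and replication 27 were below 0 (84.4%), with a median of -0.19. Of 27 genes of G2/M and mitosis 21 were below 0 (77.8%), with a median of -0.22. Brca1 and Brca2, at -0.27 and -0.26, lay near these medians, and Fancd2, Fanci and Rad51c below them. Exo1 at 0.43, Rad54l at 0.04, Chek1 at -0.03 and Rad51ap1 at -0.06 lay above them, as did the median of all 60 kept repair genes, -0.03, with 27 above 0. Of 17 low-oxygen target genes 16 were below 0, that is higher on the plate than in the microchamber. Their median was -1.02, and their differences ran from -2.84 to 0.16. The part of cell cycle distribution or oxygen in the repair gene values was not tested. On bulk RNA, fewer cells in a phase and less RNA per cell cannot be told apart.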

How the data were processed

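The authors corrected probe intensities for background, summarised, log2-transformed and normalized them with RMA, per the series design text, which also names a filter from the 20th percentile of raw signal; the deposited values are log2 values. Per the submitters' processing notes, Transcriptome Analysis Console 3.0 and Affymetrix Expression Console 1.4.1 were used; the annotation is of the mm10 build, per the file headers. RMA gives both arrays nearly the same distribution, so a shift of most genes in one direction would be hidden. The authors also deposited an absolute fold (a ratio without direction) and a log2 fold change of plate minus chamber, which equalled the difference of the array values within 1e-05 for all 33793 probe sets; the sign is turned here.

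Probe sets with 1 symbol (24708) were averaged per gene with pandas 2.3.3, and 2305 with several symbols were left out. All 62 repair genes matched a RefSeq gene of GRCm38, 3 through an older symbol, and 47 had a promoter sequence there. Pathways were assigned by textbook role. The genes, lists and complexes were chosen with earlier results of these data known. Named are genes at least 0.5 log2 apart, the extremes of each pathway, 27 genes fixed by name, of which 25 were kept, and the 2 highest and 2 lowest of each list of other repair genes; other genes in the text, Hus1, Fkbp3 and opposite-strand neighbours among them, are outside that rule. A few genes are counted in totals and medians but not reported here by name. The counting was tested on simulated data. The number of arrays limits the precision, and no p-value is given.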

Additional observations from a re-analysis of the deposited data

How the results depend on the processing

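Results were recomputed without the filter or with it at the median, after centring, after removing a loess trend (span 0.3, statsmodels 0.14.6), from the brightest probe set, from the series value table, with shared probe sets given to the symbol listed first, with other steps, with another pathway assignment (Exo1 under mismatch repair, Msh4 and Msh5 left out) and with the mean of a list. The 35 named repair genes moved by at most 0.17 (Atr, with the brightest probe set), and by at most 0.04 under the loess and centring alternatives. No gene past 0.5 changed sign. Centring and the loess trend each left 1 repair gene at least 0.5 log2 lower in place of 2, since Xrcc6 fell inside the step. At 0.3 log2 there were 9 lower and 11 higher repair genes, against 11.7% and 9.55% of all kept genes, or 18% and 15.3% of those above the median level; at 0.75 there were 0 and 1, against 1.29% and 1.11%. The filter at the median moved the Fanconi median to 0.092, because Fancc drops out. With means, the repair genes were at 0.0088, checkpoint genes at 0.23, mismatch repair at 0.067 and nucleotide excision at 0.028, against medians of -0.03, 0.14, -0.01 and 0.17. No paired analysis was possible because each group holds 1 array.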

Other observations

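Gene length was set beside the differences as a description. Across the 60 kept repair genes, which share the same pair of arrays, Spearman's rho between genomic length (median 34.3 kb, introns included) and difference was -0.12, and across 18392 kept genes with a length (median 19.0 kb) it was -0.02. Besides Fanca and Pms2, Rad54b was measured only by a shared probe set, with Fsbp, at 8.61 on the plate and 8.29 in the microchamber, a difference of -0.31. Rad54l and Fancl also had a shared probe set, at -0.04 with Lrrc41 and at -0.24 with Vrk2. The shared value of Fancl is on the other side of 0 from its own probe set, at 0.25.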
